A study of Mus musculus with 6 samples.

Results

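The genes of the ISG15 conjugation system were followed in N18-Fms prostate cancer cells after stimulation with CSF-1. They were chosen by name and comprised 6 genes, Isg15, Uba7, Ube2l6, Herc6, Usp18 and Isg20, among 36028 genes with a usable probe on the arrays. Together they had 9 probes, 1 each for Uba7, Ube2l6 and Usp18 and a pair each for Isg15, Herc6 and Isg20.

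ISG15 is a small ubiquitin-like protein, strongly induced by interferons, that is attached to other proteins by a short enzyme chain. Uba7 is the E1 enzyme that activates ISG15, Ube2l6 the E2 enzyme that carries it, and Herc6 the E3 ligase that transfers it to target proteins in the mouse. Usp18 removes ISG15 from its targets and also dampens signaling from the type I interferon receptor. Isg20 shares only its type of name with ISG15: it is an interferon-induced exonuclease that degrades RNA and takes no part in conjugation. Interferon-induced genes commonly carry interferon-stimulated response elements (ISREs), which are bound by ISGF3, a complex that includes STAT2 and IRF9.

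N18 is a luciferase-transfected subclone of the C2H line, which was derived from a prostate tumor of the TRAMP mouse. N18-Fms cells, labelled N18-CFMS, were N18 cells transduced by retrovirus with murine c-fms, the gene of the CSF-1 receptor, and sorted for the receptor by FACS, so that all arrays stem from 1 subclone and all carry the transgene. RNA was profiled on single-color arrays from unstimulated cells (the control, whose treatment is given as vehicle), from cells kept for 24 h in recombinant murine CSF-1 (100 ng/mL), and from cells kept in the same dose for 48 h. All groups were grown in serum with dihydrotestosterone, and each group held 2 arrays, from 2 independent experiments. The study's methods give shorter stimulation times than the sample labels, and the labelled times are used here.

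Between 58.7% and 72.0% of the 59305 spots other than controls were well above background on each array, and 0 were saturated. Replicate 1 of the 24 h group lay on a slide of its own, scanned apart, and the other 5 arrays shared 1 slide. Of the markers of prostate epithelial cells, Krt5, Krt8 and Krt14 were well above background on all 6 arrays, Epcam on 1 and Cdh1 on 0. The fibroblast and smooth muscle genes Col1a1, Col1a2, Dcn, Pdgfra and Acta2 were well above background on all 6 arrays, and Myh11 on 0.

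The core of an ISRE was searched for on both strands, as GAAA and GAAA separated by any 2 bases, in windows from 250 bases before to 50 bases after each RefSeq transcript start (build GRCm38.p6). It was in 1131 of 32851 windows (3.44%). Of the 6 genes, 5 had a window, 7 windows in all, with several for Isg20. Usp18 had no window, so that its promoter was not searched. Only the window of Isg15 held the core. There it occurred as 3 overlapping matches on the strand of the gene, between 78 and 57 bases before the start. The 250 bases before the start of Isg15 (chr4:156200819-156201068, minus strand) are shown with these matches in capitals.

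Isg15: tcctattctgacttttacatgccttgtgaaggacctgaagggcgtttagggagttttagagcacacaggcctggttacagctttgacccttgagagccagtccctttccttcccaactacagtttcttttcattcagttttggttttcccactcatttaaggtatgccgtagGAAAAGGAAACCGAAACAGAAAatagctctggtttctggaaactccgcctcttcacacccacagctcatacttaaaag

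A shorter motif, AANNGAAA, which lies inside each ISRE core and was searched after the core, was in 23.9% of all windows and in 3 of the 7 windows of these genes. The 3 windows belonged to Isg15, Isg20 and Uba7. In Uba7 the match was on the opposite strand, from 27 to 20 bases before the start. The window of Uba7 (chr9:107975317-107975566, plus strand) is shown as that of the gene with the change nearest to that of Isg15 among the other 5, with the shorter motif in capitals.

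Uba7: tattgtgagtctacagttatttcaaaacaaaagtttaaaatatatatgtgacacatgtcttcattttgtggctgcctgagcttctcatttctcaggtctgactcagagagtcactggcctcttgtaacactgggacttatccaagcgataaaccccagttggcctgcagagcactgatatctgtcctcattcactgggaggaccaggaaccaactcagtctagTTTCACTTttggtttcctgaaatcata

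The whole conjugation chain rose with CSF-1. After 24 h, Isg15 itself, its E1, E2 and E3 enzymes and its protease were higher than in unstimulated cells, from 3.05-fold for Herc6 to 101-fold for Usp18. After 48 h all 6 genes were higher, from 1.60-fold for Isg20 to 262-fold for Usp18. At an adjusted p under 0.05 in a limma fit across 24648 genes, 5 of 6 were called higher at 24 h, against 8.02% of all genes tested, and 6 of 6 at 48 h, against 6.58%. The median change of the 6 was 3.30 at 24 h and 4.72 at 48 h on the log2 scale, while the median of all genes tested was 0.04 and -0.04. In a bulk sample, more RNA per cell and more cells with that RNA cannot be told apart. Both comparisons use the same unstimulated arrays.

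Values are given below for each array as log2 of the signal relative to the 75th percentile of that array. Isg15 stood at -0.55 and 0.13 on the arrays of unstimulated cells, at 4.30 and 4.80 at 24 h, and at 5.42 and 6.02 at 48 h. The lowest stimulated array was thus far above the highest unstimulated one, and both 48 h arrays were above both 24 h arrays. In linear signal the same spots went from 377 and 667 to 11294 and 16677 and then to 23672 and 39203. The change was 4.76 ± 0.33 (SE) on the log2 scale at 24 h, a 27.2-fold rise with a 95% interval from 15.3-fold to 48.3-fold (adjusted p = 0.0028). At 48 h it was 5.93 ± 0.33, a 61.1-fold rise (adjusted p = 0.00139). Isg15 ranked 50 of 24648 genes from the highest log2 change at both times.

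Uba7, the activating enzyme, stood at -4.40 and -3.73 without CSF-1, at -0.20 and 0.60 at 24 h and at 1.76 and 2.05 at 48 h. The 3 groups did not overlap, and the arrays of a group were at most 0.80 apart. The change was 4.26 ± 0.35 (SE) at 24 h, a 19.2-fold rise (adjusted p = 0.00376), and 5.97 ± 0.35 at 48 h, a 62.7-fold rise (adjusted p = 0.00145). By log2 change Uba7 ranked 78 at 24 h and 49 at 48 h. Normexp background correction, which here ends with an offset of 50 added to each signal, gave smaller changes of 2.77 and 4.39 on the log2 scale, both still called.

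Ube2l6, the conjugating enzyme, stood at -1.08 and -1.20 in unstimulated cells, at 1.02 and 1.36 at 24 h and at 2.15 and 2.57 at 48 h. Its groups did not overlap either. The change was 2.33 ± 0.20 (SE) at 24 h, a 5.02-fold rise (adjusted p = 0.00419), and 3.50 ± 0.20 at 48 h, an 11.3-fold rise (adjusted p = 0.00142).

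Herc6, the ligase, stood at -3.20 and -3.10 without CSF-1, at -1.77 and -1.31 at 24 h and at -1.13 and -0.33 at 48 h by its brightest probe. The 2 arrays at 48 h were 0.81 apart, the widest gap of this probe, yet both were above both 24 h arrays. The change was 1.61 ± 0.30 (SE) at 24 h, a 3.05-fold rise (adjusted p = 0.0287), and 2.42 ± 0.30 at 48 h, a 5.35-fold rise (adjusted p = 0.0106). Normexp gave 0.95 and 1.62, both called. The call of this gene was lost in several fits with an array left out, and such fits also called fewer genes over all. The call at 24 h was lost when either unstimulated array or either 24 h array was left out, with changes from 1.38 to 1.84 and adjusted p from 0.0702 (without 24 h replicate 1, which leaves the arrays of 1 slide) to 0.117 (without unstimulated replicate 2). At 48 h it was lost without unstimulated replicate 1 (2.37, adjusted p = 0.0695) or 2 (2.47, adjusted p = 0.0629).

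Usp18, the ISG15 protease, stood at -3.84 and -2.53 in unstimulated cells, at 3.36 and 3.60 at 24 h and at 4.47 and 5.23 at 48 h. The unstimulated arrays differed by a ratio of 2.48, far less than the distance from either of them to the stimulated arrays. The change was 6.66 ± 0.48 (SE) at 24 h, a 101-fold rise with a 95% interval from 44.1-fold to 233-fold (adjusted p = 0.00292). At 48 h it was 8.04 ± 0.48, a 262-fold rise with an interval from 114-fold to 603-fold (adjusted p = 0.00152). The size of the fold depended on the processing and on the unstimulated arrays, though Usp18 stayed called in each case. Normexp gave log2 changes of 5.41 at 24 h and 6.79 at 48 h. Without unstimulated replicate 1 the changes were 6.01 and 7.38, and without replicate 2 they were 7.32 and 8.69. Usp18 ranked 10 at 24 h and 9 at 48 h among the 24648 genes, the highest rank of the 6 at both times.

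**Figure D1:**
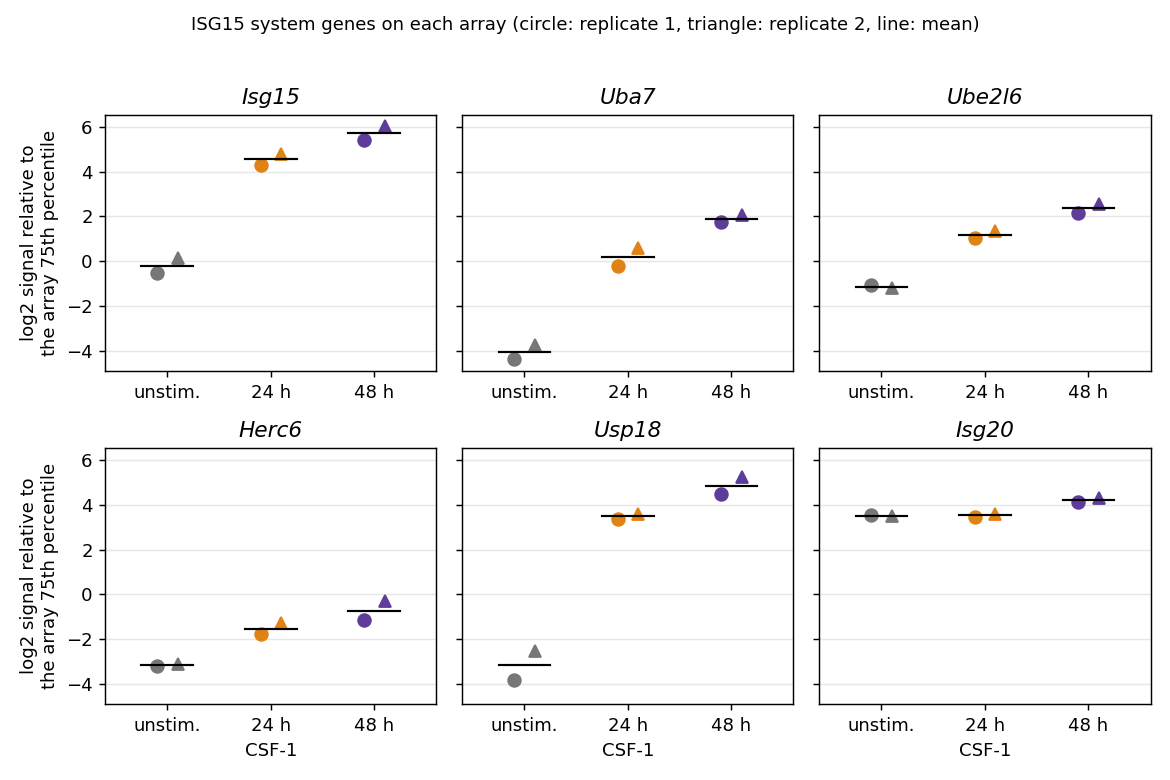
The signal of each gene's brightest probe on every array, as log2 relative to the 75th percentile of the array (vertical axis), without CSF-1, at 24 h and at 48 h (horizontal axis). Circles are replicate 1, triangles replicate 2 and lines the mean of 2 arrays. In Isg15, Uba7, Ube2l6, Herc6 and Usp18 every stimulated array lies above both unstimulated arrays, while the unstimulated and 24 h arrays of Isg20 overlap.

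Isg20, the exonuclease, was called at 48 h and not at 24 h. It stood at 3.55 and 3.48 without CSF-1, at 3.47 and 3.61 at 24 h and at 4.11 and 4.28 at 48 h. The unstimulated and 24 h arrays overlapped, and both 48 h arrays were above the other 4. At 24 h the change was 0.02 ± 0.12 (SE), with a 95% interval from -0.29 to 0.33 and an adjusted p of 0.930, and its sign turned to -0.28 under centring on the array median. At 48 h it was 0.68 ± 0.12, a 1.60-fold rise (adjusted p = 0.0260), which leaving out any of the 6 arrays took past the threshold. The changes were then 0.60 to 0.77, and the adjusted p ranged from 0.0515 (without either 24 h array) over 0.0745 (without 48 h replicate 1), 0.101 (without unstimulated replicate 1) and 0.109 (without unstimulated replicate 2) to 0.123 (without 48 h replicate 2). Median centring gave 0.58 at 48 h (adjusted p = 0.0971). The difference of its time course from those of the other 5 genes was not tested.

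Counted by array, Isg15, Uba7, Ube2l6, Herc6 and Usp18 had both 24 h arrays above both unstimulated arrays, which held for 31.3% of all genes tested. All 6 genes had both 48 h arrays above both unstimulated arrays, against 23.8% of all genes. With 2 arrays a group, an exact 2-sided permutation test of a single gene cannot give a p below 0.333, so that the p-values rest on the spread that limma shares across genes.

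At 48 h the estimates were above those at 24 h in all 6 genes, but no difference passed the adjusted threshold. The log2 difference of 48 h from 24 h was 1.71 ± 0.35 (SE) in Uba7, 1.37 ± 0.48 in Usp18 and 1.17 ± 0.33 in Isg15. It was 1.17 ± 0.20 in Ube2l6, 0.81 ± 0.30 in Herc6 and 0.66 ± 0.12 in Isg20. The adjusted p ranged from 0.138 in Ube2l6 to 0.339 in Herc6, so that 0 of 6 were called, and over all genes limma called 0% higher. At an unadjusted limma p under 0.05, 6 of 6 were higher, against 4.38% of all genes, and with a change of at least 2-fold as well, 4 of 6 (Uba7, Usp18, Isg15 and Ube2l6), against 0.868%. All 6 had both 48 h arrays above both 24 h arrays, which held for 14.2% of all genes. With an intensity trend in the prior spread, Uba7 (adjusted p = 0.0480), Ube2l6 (0.0282) and Isg20 (0.0391) were called, and with normexp background correction Uba7 (0.0218) and Ube2l6 (0.0257).

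**Figure D2:**
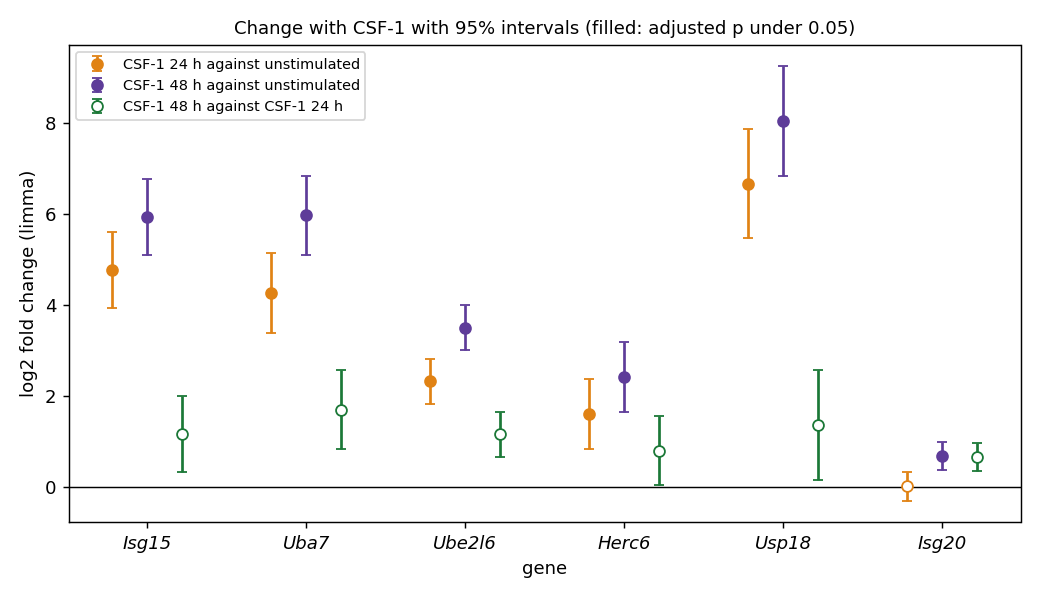
Log2 fold change of each gene (vertical axis) in the 3 comparisons, with 95% intervals from the limma fit as bars and filled points where the adjusted p was under 0.05. Usp18 has the largest change of the 6 against unstimulated cells at 24 h (6.66) and 48 h (8.04), Isg20 at 24 h lies at 0.02, and no difference of 48 h from 24 h is filled.

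The second probes gave the same order of groups. The second Isg15 probe, which was not well above background on 1 of the 2 unstimulated arrays, stood at -5.45 and -3.29 without CSF-1, at 0.81 and 1.36 at 24 h and at 1.91 and 2.68 at 48 h. Its changes were 5.46 ± 0.73 (SE) at 24 h and 6.67 ± 0.73 at 48 h (adjusted p = 0.0134 and 0.00868 in a fit over 34814 probes). Leaving out that dim array, unstimulated replicate 1, gave 4.38 and 5.59 (adjusted p = 0.0286 and 0.0197), and leaving out unstimulated replicate 2 gave 6.54 and 7.75. Its call was lost at 24 h without 24 h replicate 1 or 2 (adjusted p = 0.0563 and 0.0682) and at 48 h without 48 h replicate 2 (adjusted p = 0.0516). This probe lies at position 412 of the transcript, and the files place 20 of its 60 bases on the genome (mm9 chr4:155573533-155573552). The second Isg20 probe changed by 0.05 ± 0.13 at 24 h and 0.71 ± 0.13 at 48 h, close to the brightest probe.

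The Herc6 probes differed most between each other at 48 h. The dimmer one stood at -4.40 and -3.83 in unstimulated cells, at -2.63 and -2.52 at 24 h and at -0.97 and -0.48 at 48 h. Its change was 1.54 ± 0.26 (SE) at 24 h, near the 1.61 of the brightest probe, but 3.39 ± 0.26 at 48 h (adjusted p = 0.00335) against 2.42. The call of the dimmer probe at 24 h was lost without either unstimulated array or either 24 h array (adjusted p = 0.0508 to 0.0972), and the call at 48 h held without any of the 6 (changes of 3.10 to 3.68). The difference between the probes was not tested. The brightest probe lies at position 1320 of the transcript (mm9 chr6:57568608-57568667). The dimmer one lies at position 2808 and covers 314 bases of the genome (mm9 chr6:57612406-57612719), more than its 60 bases, and so crosses an intron. The 60 bases of each of these probes are shown because they gave different changes at 48 h, together with those of the second Isg15 probe, whose genome position is given only in part.

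Herc6 brightest probe: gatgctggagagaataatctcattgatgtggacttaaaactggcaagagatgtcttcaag

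Herc6 other probe: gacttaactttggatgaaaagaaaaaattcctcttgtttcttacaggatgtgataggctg

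Isg15 other probe: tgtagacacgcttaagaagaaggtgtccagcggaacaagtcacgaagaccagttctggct

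**Figure D3:**
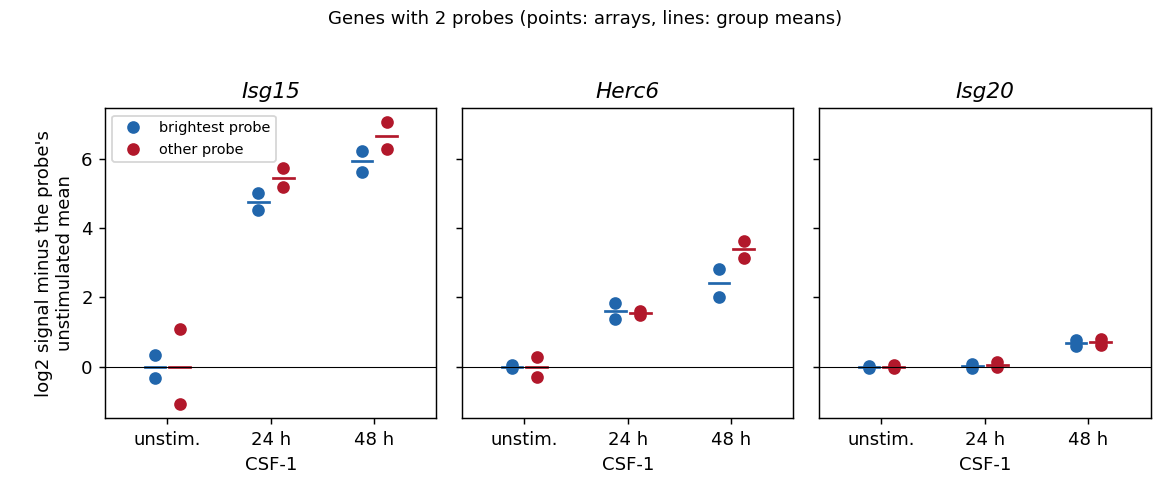
Signal of both probes of Isg15, Herc6 and Isg20 as log2 minus the probe's own mean in unstimulated cells (vertical axis), by group (horizontal axis); points are arrays and lines group means. The probes of Isg20 lie together, those of Herc6 part at 48 h (2.42 and 3.39), and the second Isg15 probe has the widest unstimulated pair.

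The 5 genes outside the group with the pattern most like Isg15 were found among 12303 genes, by the root mean square difference of the log2 change over the 4 stimulated arrays. They were Batf2, a basic leucine zipper transcription factor (0.25), Apol9b, of the apolipoprotein L family (0.29), Gm9706 (0.37), Phf11 (0.42) and Oas1f, of the oligoadenylate synthetase family (0.45). Within the group, Uba7 was nearest (0.39). Gm9706 is a pseudogene in the RefSeq table, and the array annotation describes its transcript as an interferon-stimulated protein. Its probe shares an unbroken run of 35 of 60 bases with the brightest Isg15 probe, so that the signals of Gm9706 and of that Isg15 probe cannot be told apart. The longest run it shares with the second Isg15 probe is 5 bases. Phf11 is the name in the array files, a symbol that the RefSeq table gives to a pseudogene.

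The signaling genes upstream of this system moved in part. Of 10 genes of the interferon receptors and ISGF3, 5 were called higher and 1 lower at both times. Background shares for higher calls were 8.02% of all genes at 24 h and 6.58% at 48 h. For lower calls they were 5.99% and 7.38%. Irf7, a transcription factor that amplifies interferon responses, rose by 3.67 at 24 h and 4.91 at 48 h on the log2 scale. Stat2 and Irf9, components of ISGF3, rose by 2.77 and 3.54 and by 2.73 and 2.79. Irf1 rose by 1.25 (not called under median centring) and 2.08, and the kinase Jak2 by 1.10 and 1.24, whereas the receptor chain Ifngr1 fell by 0.71 and 0.68. Ifnar1 (0.47 and 0.37), Ifnar2 (0.70 and 0.68), Ifngr2 (0.37 at both times) and Tyk2 (0.10 and 0.28) did not pass the test. Ifnar2 was called higher at both times under quantile normalization and under normexp, and Ifnar1 at 24 h under normexp.

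Interferons themselves gave no call. Of 19 interferon genes, 15 were on the array and 11 were tested. At either time limma called 0 of these, and 0 passed an unadjusted p under 0.05. Over all genes, 8.02% were called higher at 24 h and 6.58% at 48 h, so that few calls among 11 genes would be found at those shares. An unadjusted p under 0.05 was found for 7721 of 24648 genes at 24 h and 7613 at 48 h. The methods' t-test called 0 of all genes after adjustment and so adds nothing here. The median change of the 11 interferon genes was 0.13 at 24 h and 0.00 at 48 h. Ifnb1, Ifna4 and Ifne were well above background on no array and Ifng on 1, so that changes in them were not detectable at this signal.

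Genes whose proteins are known to be modified by ISG15 were split. Of 17 tested, 4 were called higher at both times, against 8.02% of all genes at 24 h and 6.58% at 48 h. Ifit1, which binds foreign RNA, rose by 5.73 and 7.39 on the log2 scale. Mx1, an antiviral GTPase, was not well above background in unstimulated cells and was at least 6.73-fold higher at 24 h (adjusted p = 0.00509) and at least 37.9-fold higher at 48 h (adjusted p = 0.00151). Ddx58, the RNA sensor RIG-I, rose by 3.11 and 3.36, and Eif2ak2, the kinase PKR, by 1.63 and 1.67. These 4 genes are themselves known interferon targets, and the median of the list was 0.16 at 24 h and 0.00 at 48 h.

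Relatives of these genes in the ubiquitin system were counted in the same way. Of 30 tested (ubiquitin-like modifiers, E1 and E2 enzymes, HERC ligases and USP proteases), 2 were called higher at each time, against 8.02% of all genes at 24 h and 6.58% at 48 h, and 0 lower, against 5.99% and 7.38%. These counts moved with the scaling. At 24 h median centring gave 0 higher and 4 lower, quantile normalization 1 and 1, and normexp 2 and 1. At 48 h they were 1 and 0, 2 and 0, and 3 and 4 in the same order. Their median was -0.11 at 24 h and -0.17 at 48 h. Atg7, the E1-like enzyme of autophagy, was called at both times (0.73 and 1.01), though not at 24 h under median centring. Of 8 other ISG15 ligases and binding partners, 0 were called higher and 1 lower at each time. The lower ones were Ube2e2 at 24 h (-0.62) and Skp2 at 48 h (-0.83). At each time 4 of 8 had an unadjusted limma p under 0.05, as did 7721 of all 24648 genes at 24 h and 7613 at 48 h. At 24 h median centring gave 3 lower (Skp2, Ube2e1 and Ube2e2) and normexp 2 (Skp2 and Ube2e2), and at 48 h normexp gave 2 (Skp2 and Ube2e1). The deacetylase Hdac6 was called higher at both times under normexp and at 48 h under quantile normalization. The probes of Trim25, another ISG15 ligase, disagreed. The brightest gave 0.18 and 0.38 (adjusted p = 0.572 and 0.243), while the other gave 1.15 and 1.48 (adjusted p = 0.0180 and 0.0103 over all probes). Of the dimmer probes of Itgal, on the same list, one was called higher at 24 h (1.02, adjusted p = 0.0378 over all probes). The brightest Itgal probe gave 0.17 there, and the remaining one 0.24, not called. The probes of Arih1, also on this list, had opposite signs at 24 h (0.39 and -0.26) and at 48 h (0.28 and -0.34), and neither was called. Among 10 exonuclease relatives of Isg20, Trex1 was the only one called higher, at both times (1.26 and 1.78), and 3 were lower at each time, of which Aen (-0.65 and -0.70) and Rexo2 (-0.48 at both times) were lower at both. The lower calls numbered 1 at 24 h and 2 at 48 h under quantile normalization, 5 and 1 under median centring, and 4 and 4 under normexp.

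**Figure D4:**
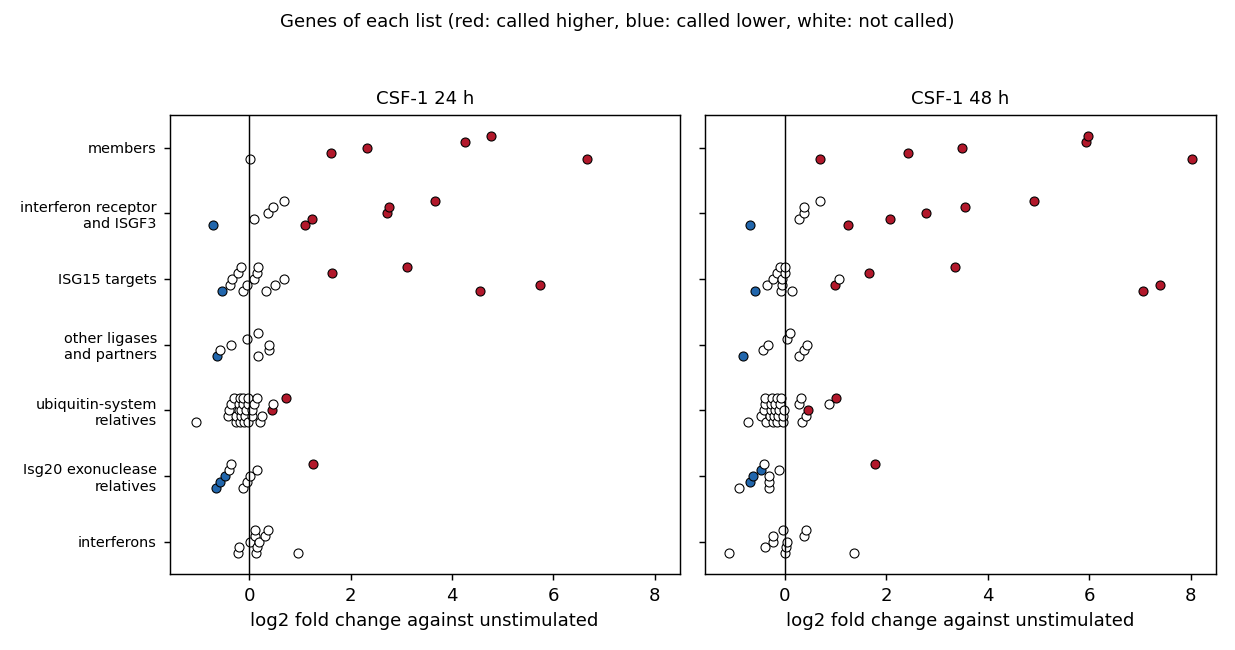
Log2 fold change against unstimulated cells (horizontal axis) of the genes tested in each list (vertical axis), at 24 h (left) and 48 h (right); each point is a gene, red where called higher, blue where called lower and white where not called at an adjusted p under 0.05. Mx1, at 4.56 and 7.05 among the ISG15 targets, is drawn at its fitted value, for which only a lower limit holds. The genes of the ISG15 system reach 8.04, the interferons have no called gene, and the ubiquitin-system relatives lie between -1.05 and 1.01.

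Some markers of other cell types moved as well. Over all genes tested, 8.02% were called higher and 5.99% lower at 24 h, and 6.58% and 7.38% at 48 h. Of 13 markers of macrophages and other leukocytes, 10 were tested, and 2 were called higher and 0 lower at both times. They were the mannose receptor Mrc1 (4.27 and 3.56) and Cd14 (0.87 and 0.69). Under median centring Cd14 was not called at 48 h, Itgam was called lower at both times and Siglech at 24 h, and under normexp Itgam was lower at 48 h. Lyz2, Spi1 and Clec9a were well above background on no array, and Ptprc on all 6. The 13 markers were summed in multiples of the 75th percentile of the array. The sum was 111 to 129 in unstimulated cells, 92.4 to 105 at 24 h and 81.8 to 99.8 at 48 h. Most of it came from Siglech (6.29 and 6.05 on the log2 scale in unstimulated cells) and Itgam (5.40 and 5.23). The called Mrc1 (-2.74 and -2.84) and Cd14 (0.98 and 1.08) stood far below them there. The summed signal of the 6 fibroblast and smooth muscle markers was 336 to 341 in unstimulated cells and 121 to 163 in stimulated cells. Its genes did not all move one way. Of 5 tested, the collagens Col1a1 (-0.88 and -1.19) and Col1a2 (-1.44 and -1.23) and the smooth muscle actin Acta2 (-2.26 and -3.48) were called lower at both times, while the proteoglycan Dcn was called higher at both (2.08 and 2.78) and the receptor Pdgfra at 24 h (1.33, and 0.63 at 48 h, not called). The summed signal of the 8 epithelial markers was 1.85 to 2.23 in unstimulated cells, 1.97 to 2.01 at 24 h and 2.65 to 2.69 at 48 h. Of 6 tested, the keratin Krt8 was called higher at 48 h (1.98, adjusted p = 0.0106, and called under quantile normalization, median centring and normexp as well). Its change of 0.74 at 24 h was not called, but it was called at that time under normexp. The part of these shifts in the changes of the ISG15 genes was not tested.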

How the data were processed

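The authors deposited, for each array, the Agilent Feature Extraction output (version 11.0.1 per the labels), whose processed signal is a background-subtracted intensity on a linear scale, not normalized between arrays. The deposited files also hold mean spot and local background intensities. The authors deposited log2 values for part of the probes as well. Their differences between arrays match those of the signals (99.8% within 0.05), their medians per array run from -0.04 to 0.17, and their gene centring is not given in the sources used here.

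Outlier spots were left out (303 probes), repeated spots averaged, and log2 signals set against the 75th percentile of each array. The brightest probe stood for a gene. Genes whose probe stood well above background on each array of some group were tested in limma 3.58.1 (R 4.3.3, data.table version 1.17.8; lmFit and eBayes, 2-sided, all 6 arrays, 3 residual and 2.39 prior degrees of freedom), with Benjamini-Hochberg adjustment over 24648 genes. Members of a list were named where called at both times, at most 4 with the largest mean change, besides all genes of the interferon receptor and ISGF3 list and the 5 genes nearest to Isg15. Trim25, Itgal, Arih1, Ube2e1, Ube2e2, Skp2, Hdac6, Itgam, Siglech, Pdgfra, Krt8 and the interferons named were singled out after their values were seen. The genes, the lists and these rules were chosen with earlier results of these data known. The number of arrays limits the precision. Some genes of the lists are not reported here. The fit was tested on simulated data.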

Additional observations from a re-analysis of the deposited data

How the results depend on the processing

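All member changes against unstimulated cells kept their sign under every alternative run except Isg20 at 24 h (-0.28 to 0.11, never called). Among the alternatives other than the methods' t-test, Isg15, Usp18, Uba7 and Ube2l6 stayed called at both times, with an adjusted p of at most 0.0345 when an array was left out. Normexp lowered the folds of Usp18, Uba7 and Herc6 by over 1.5 times at both times, and leaving out an unstimulated array moved that of Usp18 as much. Herc6 at 24 h was also lost under quantile normalization (1.46, adjusted p = 0.0514) and with no filter on dim probes (adjusted p = 0.0812), and Isg20 at 48 h with no filter (0.0930) and in a fit of only the 2 groups compared (0.0515). The methods' t-test called 0 genes after adjustment, hence 0 members, at 24 h and at 48 h. At an unadjusted p under 0.05 with at least 2-fold it called 1352 genes at 24 h, 1162 at 48 h and 5 members at each time.

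The genes called numbered 3454 at 24 h, 3441 at 48 h and 0 for 48 h against 24 h. In the same order, the unadjusted 2-fold rule gave 1894, 1598 and 560 genes, with 4 members in the last comparison. No filter on dim probes gave 1319 and 870. The intensity trend gave 5477 genes at 48 h and 195 for 48 h against 24 h, with 3 members, and normexp background correction gave 210 with 2 members. For 48 h against 24 h, median centring gave 7 genes and requiring all 6 arrays above background gave 5. A fit of only the 2 groups gave 2116 at 48 h, and slide as a block, which equals leaving out the lone array of its slide, gave 1079 and 2116. Leaving out 1 array, whose lone partner is then assumed to vary like the other groups, gave 899 to 2539, 889 to 2116 and 0 to 11 genes, and 4 to 5, 4 to 5 and 0 members. Median centring shifted the median of all genes by -0.30 at 24 h and -0.10 at 48 h, and moved the share of higher among called genes from 57.2% to 23.4% and from 47.1% to 39.9%; normexp gave 46.9% and 38.4%.

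With the replicate number as a block (replicate block), 3800, 3967 and 0 genes were called and no member changed its call. Same-numbered arrays deviated together with correlations of 0.13, 0.09 and 0.20, not all over 0.1, so the numbers were not taken to pair them. The shorter promoter motif, and leaving out arrays for the second probes of Isg15 and Herc6, were chosen after seeing the data.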
